A study of Rattus norvegicus with 60 samples.

Results

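The surfactant and alveolar type II genes described here are Sftpa1, Sftpb, Sftpc, Sftpd, Lamp3, Abca3, Napsa, Slc34a2, Lpcat1 and Muc1, 10 genes chosen by name. Of these, 9 were found by gene symbol, and Lpcat1 was found by its gene identifier under an older name, Aytl2. They took up 11 of the 21792 rows of the table, because Lamp3 had 2 rows, and the brightest row stood for each gene. Expression was measured on Illumina bead arrays in whole lung of 60 male CDF Fisher 344 rats, an inbred strain, with 1 array per rat. Lungs were taken at 5 times, of 1, 2, 4, 8 or 16 weeks after the exposure ended, and each time had 8 rats that had inhaled crystalline silica at 15 mg/m3, 6 hours a day for 5 days and 4 rats that had breathed air. The rats of each time were different animals, 40 silica rats and 20 air rats in all. The labels give an age of about 3 months for every group. This cannot be the age at which the 16 week lungs were taken.

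Pulmonary surfactant is a film of phospholipid and protein that lowers surface tension in the alveoli. It is made by alveolar type II cells, which store it in lysosome-related organelles called lamellar bodies and release it into the airspace. Inhaled crystalline silica is known to cause type II cell hyperplasia and a build-up of surfactant in rat lungs. Type II cells also act as the progenitors of the flat type I cells that line the alveoli.

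Arrays had median signals of 60.2 to 97.8 and 11225 to 12594 rows detected, and no array stood apart (lowest median correlation with the others 0.986). All 10 genes were detected on 60 of 60 arrays, at a detection p-value under 0.05. Several of their probes were among the brightest of the array. The Sftpa1 probe had a median signal of 22668, which was 93.8% of the highest signal of its array, with a range over arrays of 72.9% to 100%. It was the brightest row of all on 15 of 60 arrays. Sftpc reached a median signal of 17029 (73.5% of the highest signal) and Sftpb 14807 (61.6%). Taking 50% of the array's highest signal as near saturation, these 3 genes had their median past that limit, on 60 arrays for Sftpa1 and Sftpc and on 59 for Sftpb. Napsa (9680) passed it on 1 array, and the other 6 genes on none. The signal at which the scanner saturates is not stated in the sources used, so this limit is relative to each array. The remaining medians were 8984 for Slc34a2, 7035 for Lpcat1, 4814 for Lamp3, 2569 for Muc1, 1815 for Sftpd and 1201 for Abca3. A signal close to the top of the scale leaves less room for a difference to show, and signals of different probes are not comparable as transcript levels.

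**Figure D1:**
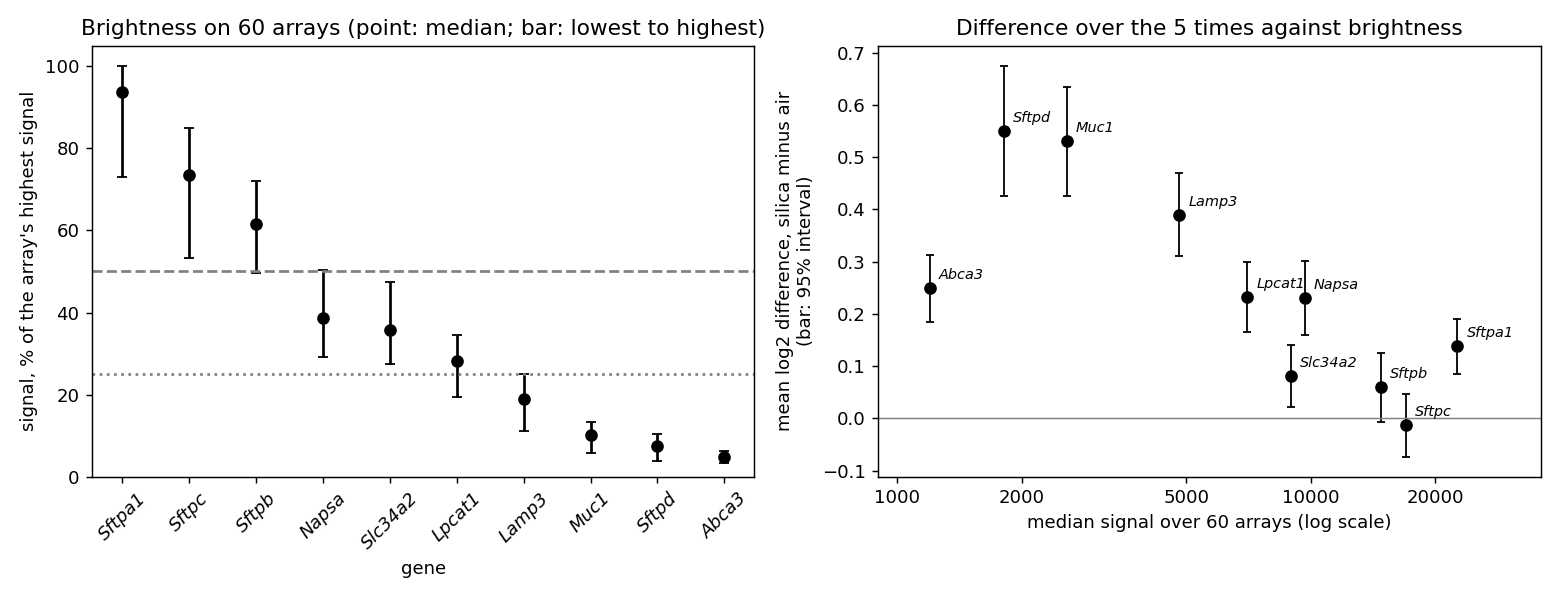
Left, signal of each gene's brightest row as a percentage of the highest signal on its array, as the median (point) and the lowest to the highest of 60 arrays (bar), with dashed and dotted lines at 50% and 25%. Right, mean log2 difference of silica minus air over 5 times with its 95% interval, against the median signal on a log axis: Sftpd and Muc1 at 0.55 and 0.53 lie at low signal, and Sftpb and Sftpc at 0.06 and -0.01 at high signal, while Abca3, the dimmest, lies at 0.25.

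The central comparison was silica rats against air rats of the same time, on background-corrected, quantile-normalized log2 intensities. A gene was called where limma's test, fitted once to all 60 arrays, gave a Benjamini-Hochberg adjusted p under 0.05 over the 13919 genes tested. At 1 week 3 of the 10 genes were called higher in silica rats (Lamp3, Abca3 and Muc1), where 2.68% of all genes tested were called higher. At 2 weeks there were 6 (Sftpd, Lamp3, Abca3, Napsa, Lpcat1 and Muc1; 4.79% of all genes). The 4 week comparison gave 3 (Sftpd, Lamp3 and Muc1; 2.86% of all genes) and the 8 week comparison 4 (Sftpd, Lamp3, Lpcat1 and Muc1; 4.76% of all genes). At 16 weeks the same 6 genes as at 2 weeks were called higher (10.5% of all genes). None of the 10 was called lower at any time by limma, and none of the negative differences had an unadjusted p under 0.05, while 1.14%, 4.61%, 3.76%, 4.15% and 12.2% of all genes were called lower at the 5 times in order. Over all 50 pairs of gene and time, 46 differences were positive, 22 were called, and in 11 every silica rat lay above every air rat. Such separation held for 0, 4 (Lamp3, Abca3, Lpcat1, Muc1), 1 (Muc1), 1 (Muc1) and 5 (Sftpd, Lamp3, Napsa, Lpcat1, Muc1) of the 10 genes at the 5 times in order, and for 2.26%, 1.95%, 1.54%, 2.87% and 5.75% of all genes.

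For the mean of the 5 differences, 8 of the 10 genes were called higher, where 14.6% of all genes tested were called higher and 20.6% lower. The median log2 difference of the 10 genes was 0.23, beside -0.01 for all genes tested. Sftpd and Muc1 had the largest values of the 10, at 0.55 ± 0.06 and 0.53 ± 0.05 (standard error), followed by Lamp3 at 0.39 ± 0.04. Abca3, Lpcat1 and Napsa lay close together at 0.25, 0.23 and 0.23, and Sftpa1 and Slc34a2 at 0.14 and 0.08. Sftpb and Sftpc were the 2 genes not called. In whole lung a change in the number of type II cells and a change in RNA per cell cannot be told apart. Sftpa1, Sftpb, Sftpd, Muc1 and Napsa are also made in other lung epithelium or macrophages, and the part of such cells was not tested. With each array scaled by its median in place of quantile normalization, the same mean was called in 6 genes, no gene was called at 1, 2, 4 or 8 weeks, and 3 were called at 16 weeks. Calls of higher genes also became fewer over all genes tested. For the mean, 1173 genes were called higher with median scaling, against 2029 with quantile normalization. At 16 weeks the numbers were 699 and 1460. At 1, 2, 4 and 8 weeks they lay between 84 and 264 with median scaling, against 373 to 667. Of all genes called for the mean, 41.5% were higher, against 26.4% with median scaling.

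**Figure D2:**
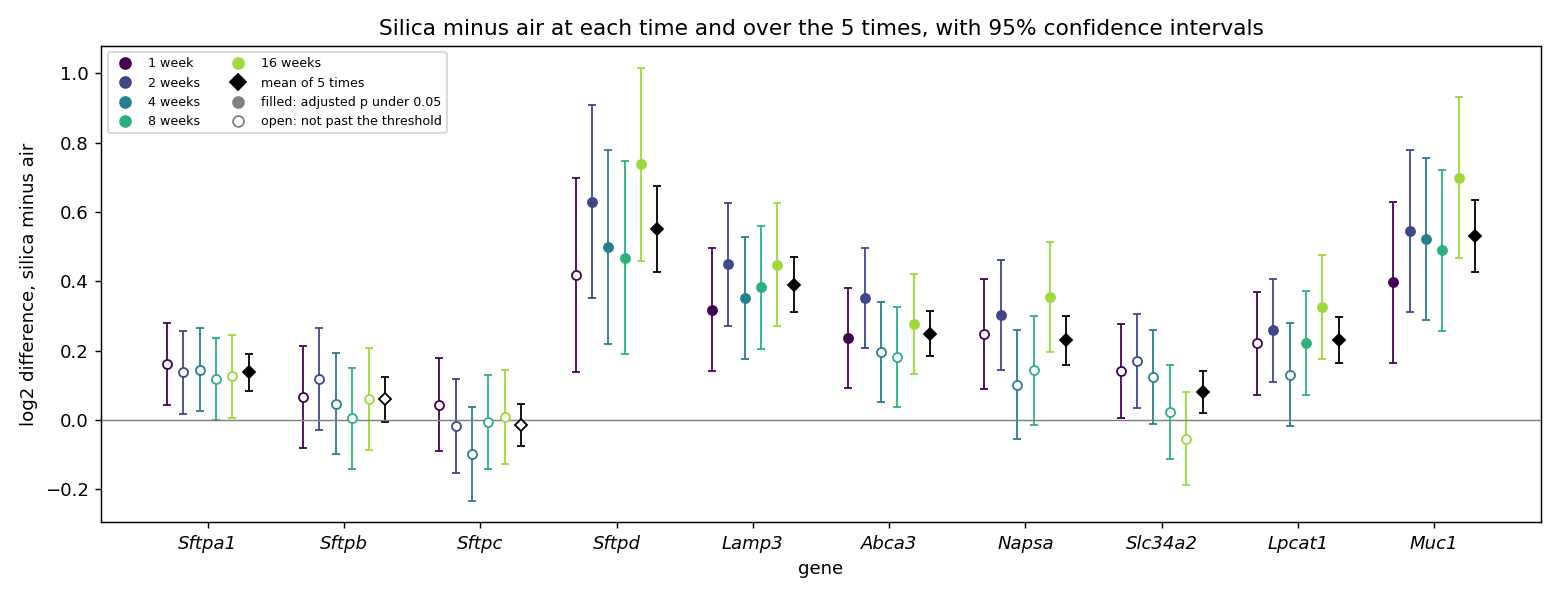
Log2 difference of silica minus air (y axis) for each gene (x axis) at the 5 times (circles, earliest to latest from the left) and for the mean of 5 times (black diamonds), with 95% confidence intervals and filled symbols for an adjusted p under 0.05. Lamp3 and Muc1 are filled at every time, and Sftpa1, Sftpb, Sftpc and Slc34a2 are open at every time.

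RefSeq promoter windows of assembly GRCr8 were on hand for 7 of the 10 genes, not for Sftpc, Sftpd and Napsa. The 250 bases before the start are shown for Muc1 and Lamp3, which were called at every time, and for Sftpb and Slc34a2, which were called at no single time. They come from chr2:176933500-176933749 (plus strand) for Muc1, chr11:94697772-94698021 (plus strand) for Lamp3, chr4:105917338-105917587 (plus strand) for Sftpb and chr14:62143073-62143322 (minus strand) for Slc34a2. Each of these 4 windows overlaps the span that RefSeq gives the gene, so other transcripts of the gene may start elsewhere. Those of Muc1, Lamp3 and Slc34a2 lie wholly inside it, the span of Lamp3 being 94657817-94726451 and that of Slc34a2 62123313-62153020. Capitals mark matches, on either strand, to 3 motifs known for lung epithelium: CTCAAG for NKX2-1, TGTTTAC for forkhead factors and TTGCNNAA for C/EBP factors.
Muc1: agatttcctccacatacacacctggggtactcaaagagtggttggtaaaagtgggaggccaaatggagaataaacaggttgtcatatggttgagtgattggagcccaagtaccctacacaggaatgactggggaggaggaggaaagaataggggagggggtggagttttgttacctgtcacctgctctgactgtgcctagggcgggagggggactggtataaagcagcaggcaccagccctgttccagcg
Lamp3: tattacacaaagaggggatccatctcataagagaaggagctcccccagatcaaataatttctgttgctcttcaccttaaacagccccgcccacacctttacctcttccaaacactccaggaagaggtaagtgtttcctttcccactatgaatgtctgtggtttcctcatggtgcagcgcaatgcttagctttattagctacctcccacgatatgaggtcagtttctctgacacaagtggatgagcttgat
Sftpb: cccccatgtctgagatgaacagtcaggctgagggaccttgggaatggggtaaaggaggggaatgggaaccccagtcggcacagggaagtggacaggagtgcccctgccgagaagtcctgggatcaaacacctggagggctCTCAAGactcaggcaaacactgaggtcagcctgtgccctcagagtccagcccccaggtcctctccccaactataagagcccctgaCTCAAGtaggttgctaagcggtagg
Slc34a2: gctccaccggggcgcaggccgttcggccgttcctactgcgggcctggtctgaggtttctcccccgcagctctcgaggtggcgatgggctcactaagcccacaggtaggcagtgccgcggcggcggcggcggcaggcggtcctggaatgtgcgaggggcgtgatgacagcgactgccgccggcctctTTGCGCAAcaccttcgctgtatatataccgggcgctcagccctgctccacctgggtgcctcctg
The Sftpb window held 2 matches to CTCAAG, starting 110 and 25 bases before the start, and 13.3% of 33469 promoters held at least 1. Slc34a2 held 1 match to TTGCNNAA at 64 bases before the start, and Sftpa1 (not printed) 1 at 194 bases, where 9.22% of promoters held at least 1. None of the 7 windows held TGTTTAC, which was found in 3.21% of promoters, and no matches of different motifs overlapped. No match to the 3 motifs lay in the Muc1, Lamp3, Abca3 or Lpcat1 windows.

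Sftpd encodes surfactant protein D, a secreted collectin that binds microbial sugars and takes part in surfactant turnover. At 1 week its log2 intensity ran from 10.58 to 10.92 in silica rats (median 10.73), against 9.97, 10.17, 10.37 and 10.74 in air rats. The groups overlapped through the highest air rat, and the difference of 0.42 ± 0.14 was not called (adjusted p = 0.0768). At 2 weeks silica rats ran from 10.57 to 11.10 (median 10.99), against 9.90, 10.24, 10.31 and 10.77 in air rats, and 1 silica rat lay within the air range. Sftpd rose there by 0.63 ± 0.14, which is 1.55-fold. At 4 weeks silica rats lay between 10.63 and 11.37 (median 11.10), against 10.26, 10.30, 10.50 and 10.93 in air rats, with a rise of 0.50 ± 0.14. The 8 week rats spanned 10.55 to 11.30 under silica (median 10.94), against 10.10, 10.32, 10.59 and 10.81 under air, with a rise of 0.47 ± 0.14. At both of these times the highest air rats reached into the silica range. At 16 weeks the silica range was 10.90 to 11.19 (median 11.09), against 10.04, 10.11, 10.59 and 10.64 in air rats. Here the groups did not overlap, the one time they did not for Sftpd, and silica was 0.74 ± 0.14 higher (1.67-fold, adjusted p = 4.73e-05). Of 40 silica rats 40 lay above the air mean of their time, and over the 5 times the rise was 1.46-fold (adjusted p = 1.65e-10).

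Sftpa1 encodes surfactant protein A, the other collectin of surfactant, which opsonizes particles and microbes. At 1 week its log2 intensity spanned 14.45 to 14.64 in silica rats (median 14.55), against 14.22, 14.33, 14.43 and 14.60 in air rats. At 16 weeks it ran from 14.46 to 14.64 in silica rats (median 14.64), against 14.43, 14.46, 14.48 and 14.52 in air rats. The groups overlapped at every time. No single time was called: the differences lay between 0.12 ± 0.06 at 8 weeks and 0.16 ± 0.06 at 1 week, with adjusted p-values from 0.124 to 0.247. Their mean of 0.14 ± 0.03 was called (1.10-fold, adjusted p = 2.74e-05), and 39 of 40 silica rats lay above the air mean of their time. Quantile normalization gives the brightest row of every array 1 common value, here 14.64, and Sftpa1 sat at that value in 14 of 40 silica rats and 1 of 20 air rats. Any difference above it cannot show. With median scaling the Sftpa1 mean was 0.07 and was not called (adjusted p = 0.423).

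Sftpb and Sftpc encode the hydrophobic proteins B and C, which spread the lipid film, and neither was called in any silica comparison. Sftpc is made in the lung by type II cells. At 4 weeks, its most negative difference, it ran from 13.96 to 14.27 in silica rats (median 14.17), against 14.13, 14.25, 14.29 and 14.33 in air rats, a difference of -0.10 ± 0.07. At 16 weeks silica rats ran from 14.04 to 14.33 (median 14.21), against 14.03, 14.17, 14.25 and 14.27 in air rats. The Sftpc groups overlapped at every time. Its mean over the 5 times was -0.01 with a 95% interval of -0.07 to 0.05 (adjusted p = 0.783). That interval leaves out a change of more than 0.07 log2 units either way on this scale, but the probe sat near the top of the signal range on every array. Sftpb at 16 weeks ran from 13.88 to 14.05 in silica rats (median 13.98), against 13.60, 13.99, 14.00 and 14.07 in air rats, so the air rats spanned the silica range. Its differences lay between 0.00 at 8 weeks and 0.12 at 2 weeks, and the mean of 0.06 had an interval of -0.01 to 0.13 (adjusted p = 0.158). With median scaling Sftpb and Sftpc stood at -0.02 and -0.10 (adjusted p = 0.859 and 0.256).

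Lamp3 encodes the lysosome-associated membrane protein of lamellar bodies, also known as DC-LAMP because mature dendritic cells make it. It was called at all 5 times. At 1 week its log2 intensity ran from 12.09 to 12.37 in silica rats (median 12.30), against 11.73, 11.84, 11.97 and 12.21 in air rats, a rise of 0.32 ± 0.09 (adjusted p = 0.0239). At 2 weeks silica rats spanned 12.14 to 12.50 (median 12.26), against 11.60, 11.85, 11.96 and 11.97 in air rats. The groups were separate there and again at 16 weeks, when the silica range was 12.29 to 12.64 (median 12.50), against 11.82, 12.02, 12.06 and 12.20 in air rats. The rise was 0.45 ± 0.09 at both of these times. At 4 and 8 weeks it was 0.35 and 0.38, and at each of these an air rat reached into the silica range. The second, dimmer Lamp3 row, with a median signal of 286, differed by 0.30, 0.52, 0.54, 0.35 and 0.67 at the 5 times, was called at 2, 4 and 16 weeks, and averaged 0.48 ± 0.07 (adjusted p = 6.80e-08).

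Abca3 encodes the lipid pump that loads phospholipid into lamellar bodies. At 2 weeks it ran from 10.25 to 10.41 in silica rats (median 10.32), against 9.82, 9.98, 9.99 and 10.15 in air rats, with no overlap and a rise of 0.35 ± 0.07 (1.28-fold, adjusted p = 0.000738). At 16 weeks silica rats ran from 10.12 to 10.46 (median 10.27), against 9.97, 9.97, 9.99 and 10.17 in air rats, a rise of 0.28 ± 0.07. The 1 week rise of 0.24 ± 0.07 passed narrowly (adjusted p = 0.0475), and 4 and 8 weeks did not pass, at 0.20 and 0.18 (adjusted p = 0.0856 and 0.113). All 40 silica rats lay above the air mean of their time.

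Lpcat1 encodes an acyltransferase that remodels phosphatidylcholine into the disaturated form typical of surfactant. At 2 weeks it ran from 12.69 to 13.07 in silica rats (median 12.88), against 12.55, 12.60, 12.65 and 12.67 in air rats. At 16 weeks silica rats ran from 12.82 to 13.11 (median 12.91), against 12.28, 12.61, 12.75 and 12.82 in air rats, the lowest silica rat standing just above the highest air rat. The groups were separate at these 2 times, with rises of 0.26 ± 0.07 and 0.33 ± 0.07, and Lpcat1 also passed at 8 weeks (0.22 ± 0.07, adjusted p = 0.0471). Napsa encodes napsin A, an aspartic protease that helps to process the surfactant protein B precursor. At 16 weeks it ran from 13.32 to 13.57 in silica rats (median 13.45), against 12.87, 13.07, 13.22 and 13.22 in air rats, with no overlap and a rise of 0.35 ± 0.08 (1.28-fold, adjusted p = 0.000487). It also rose at 2 weeks (0.30 ± 0.08), and at 1, 4 and 8 weeks the differences of 0.25, 0.10 and 0.14 did not pass (adjusted p = 0.0596, 0.494 and 0.305).

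Muc1 encodes a membrane mucin of the apical surface of lung epithelium. At 1 week it ran from 11.23 to 11.53 in silica rats (median 11.32), against 10.63, 10.83, 11.10 and 11.28 in air rats, a rise of 0.40 ± 0.12 (adjusted p = 0.0354). From 2 weeks on the groups never overlapped. At 2 weeks silica rats ran from 11.31 to 11.59, against 10.56, 10.85, 10.95 and 11.13 in air rats, and at 4 weeks from 11.23 to 11.70, against 10.63, 10.86, 10.90 and 11.22. At 8 weeks the silica range was 11.21 to 11.66, against 10.46, 10.80, 11.13 and 11.19 in air rats. At 16 weeks it was 11.32 to 11.74 (median 11.58), against 10.50, 10.93, 10.94 and 11.08 in air rats. The rises at these 4 times were 0.55, 0.52, 0.49 and 0.70 (each ± 0.12), the last being 1.62-fold (adjusted p = 5.08e-06).

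Slc34a2 encodes the sodium phosphate cotransporter that takes phosphate back from the alveolar fluid. At 2 weeks it ran from 13.11 to 13.30 in silica rats (median 13.28), against 13.00, 13.00, 13.07 and 13.25 in air rats. At 16 weeks silica rats ran from 12.99 to 13.36 (median 13.13), against 13.06, 13.10, 13.22 and 13.40 in air rats. The groups overlapped at both times and at the others. Its differences at the 5 times in order were 0.14, 0.17, 0.12, 0.02 and -0.05 (each ± 0.07), and none was called. The mean of 0.08 ± 0.03 was called (1.06-fold, adjusted p = 0.0286), with 28 of 40 silica rats above the air mean of their time. With median scaling it was -0.0027 (adjusted p = 0.978) and with the replicate number as a block 0.06 (adjusted p = 0.206). It was also not called when 1 of 5 air rats was left out: replicate 2 at 1 week, 3 at 4 weeks, 2 at 8 weeks, or 2 or 4 at 16 weeks (adjusted p up to 0.0712).

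**Figure D3:**
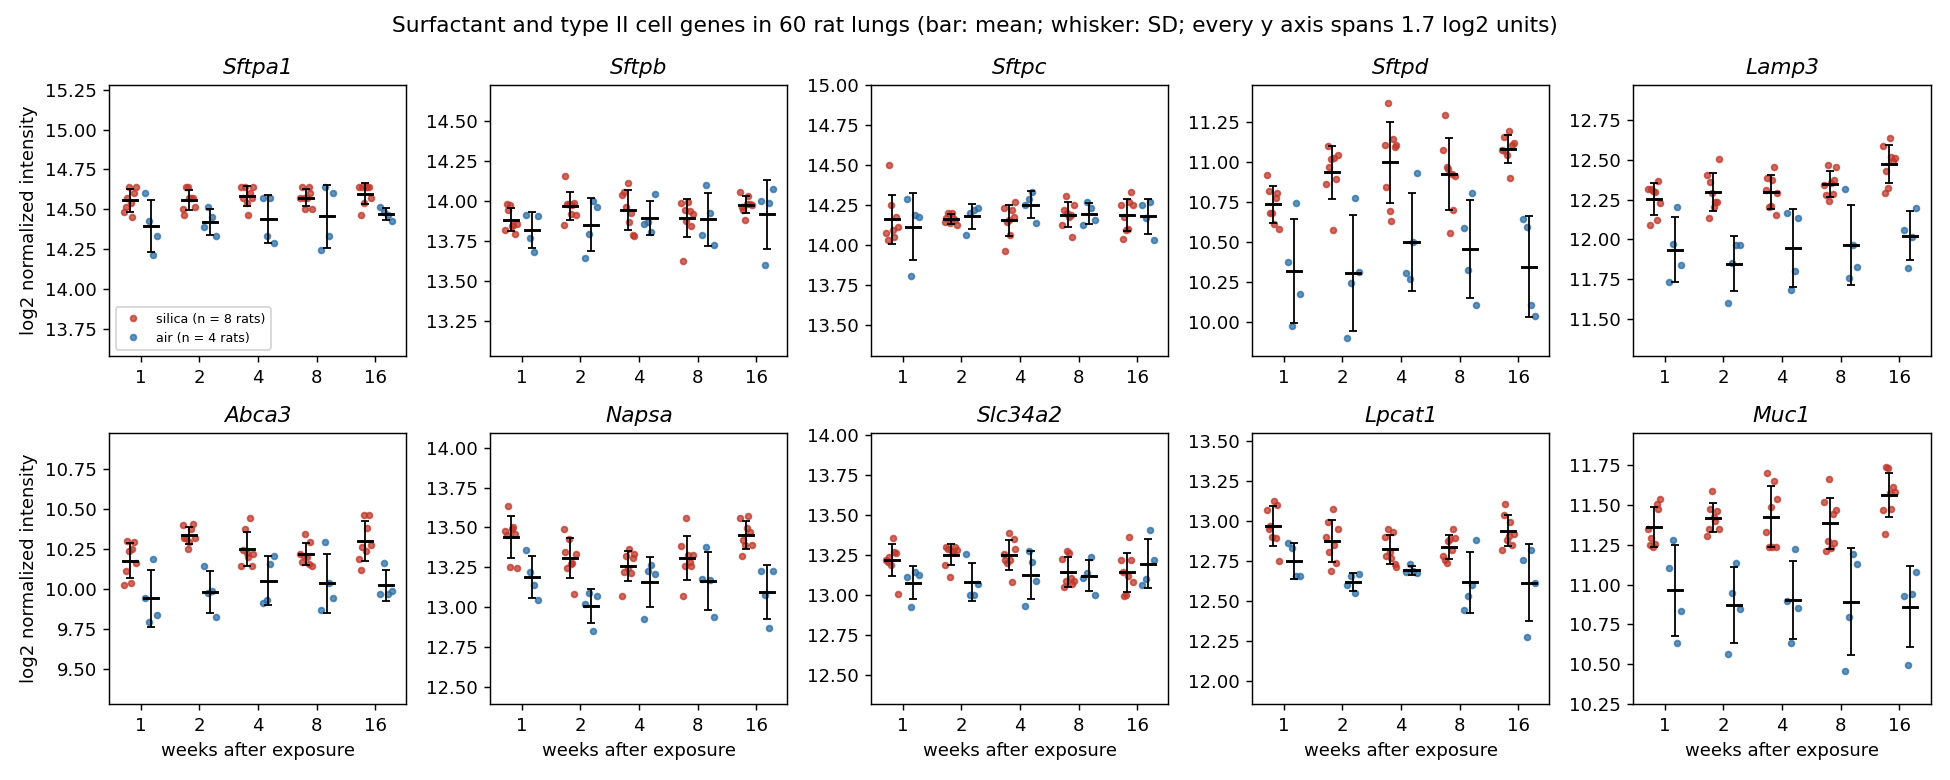
Log2 normalized intensity of each gene in every rat (points), silica left of air at each week, with the group mean (bar) and SD (whisker) for 8 silica and 4 air rats. At 2 and 16 weeks all Muc1 and Lamp3 points of silica rats lie above the air points, with Lamp3 medians of 12.50 in silica rats and 12.04 in air rats at 16 weeks, while the Sftpc groups overlap at every week.

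The differences in signal were compared between genes within arrays, by subtracting the Sftpc value of each array from every gene before the same fit. The Sftpc probe was past the 50% limit on every array, and the signal at which the scanner saturates is not known. These values therefore compare measured signals, and a lack of change in Sftpc RNA cannot be told apart from a compressed signal. Over the 5 times, the signal of 7 of the other 9 genes rose more than that of Sftpc, where 23.3% of all genes tested were called either way. Sftpd exceeded Sftpc by 0.56 (95% interval 0.42 to 0.71), Muc1 by 0.54 (0.41 to 0.68) and Lamp3 by 0.40 (0.32 to 0.49). Abca3 followed at 0.26, Lpcat1 at 0.25, Napsa at 0.24 and Sftpa1 at 0.15 (adjusted p = 0.00471). Slc34a2, at 0.09 (0.01 to 0.18), and Sftpb, at 0.07 (-0.03 to 0.17), were not called apart from Sftpc (adjusted p = 0.114 and 0.328). A common scaling of an array cancels in such a difference, so median scaling and no normalization give the same values here. The count was 7 under both, and 6 without the 4 week groups. By time it was 0 at 1 week (0.992% of all genes), 4 at 2 weeks (2.97%), 4 at 4 weeks (3.77%), 2 at 8 weeks (3.46%) and 6 at 16 weeks (13.4%).

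The same was done against Slc34a2, whose probe was dimmer. Over the 5 times 6 of 9 genes rose more than Slc34a2: Sftpd (0.47, 95% interval 0.35 to 0.59), Muc1 (0.45, 0.35 to 0.55), Lamp3 (0.31), Abca3 (0.17), Napsa (0.15) and Lpcat1 (0.15). Here 47.8% of all genes were called either way, so the count is not far from that of genes at large. By time it was 0 at 1 week (6.03% of all genes), 3 at 2 weeks (23.4%), 1 at 4 weeks (8.21%), 3 at 8 weeks (3.35%) and 6 at 16 weeks (13%), when the same 6 genes were called, with Muc1 0.75 and Sftpd 0.79 above Slc34a2. Across the 10 genes the mean difference was smaller for brighter probes, with Pearson's r = -0.75 between log2 median signal and difference and Spearman's rho = -0.83. These 10 points share the same arrays, and the part of signal compression in the order of the genes was not tested.

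The study followed the lungs over time, and the differences of the 10 genes did not change detectably with time. The F-test that the 5 differences are equal called 0 of 10 genes (limma; 2.10% of all genes), and 0 at an unadjusted p under 0.05. The slope of the difference per doubling of weeks was also called in 0 of 10 (1.77% of all genes), and 1, Slc34a2, had an unadjusted p under 0.05. The Slc34a2 slope was -0.05 ± 0.02 (limma's test, adjusted p = 0.208). Relative to Slc34a2, the slope was called in 1 of 9 genes, Muc1 at 0.11 (0.04 to 0.18, adjusted p = 0.0451), near the 9.66% of all genes. The slope of Muc1 by itself was 0.05 ± 0.04 and was not called (limma's test, adjusted p = 0.562). In air rats alone the slope was called in 0 of 10 (1.96% of all genes), and 0 at an unadjusted p under 0.05. In silica rats alone Lamp3 rose by 0.05 ± 0.02 per doubling of weeks (adjusted p = 0.017) and Sftpd by 0.07 ± 0.03 (adjusted p = 0.036), where 12.9% of all genes were called higher. Lamp3 means in silica rats were 12.25, 12.30, 12.30, 12.35 and 12.47 at the 5 times in order, and those of Sftpd 10.73, 10.93, 11.00, 10.92 and 11.08. Without the 16 week groups neither slope was called.

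The labels name no slide or batch, but the deposited order of the arrays falls into 8 runs in which no group repeats. Runs 1, 3, 5 and 6 each held 1 silica and 1 air array of every time, and runs 2, 4, 7 and 8 held 5 silica arrays each. The highest signal of an array ran from 19782 to 25312 in runs 1, 2, 7 and 8 and from 21967 to 35806 in runs 3 to 6, so the brightness of the top of the scale moved with the run. Within each mixed run the mean of 5 silica minus air pairs was positive for 8 of the 10 genes, all but Sftpc and Slc34a2. Sftpb was among them by a small margin, at 0.12, 0.01, 0.09 and 0.01 in runs 1, 3, 5 and 6. For Sftpd it was 0.53, 0.69, 0.59 and 0.31 in runs 1, 3, 5 and 6, for Lamp3 0.49, 0.46, 0.42 and 0.23, and for Muc1 0.54, 0.51, 0.72 and 0.39. Run 6 gave the smallest value for each of these, and its air arrays had the highest median for Sftpd, 10.74, beside 10.32, 10.30 and 10.10 in runs 1, 3 and 5. With the run as a block in the fit, the mean of 5 times had 8 calls, with values of 0.53 for Sftpd, 0.54 for Muc1, 0.40 for Lamp3 and 0.02 for Sftpc. At 1 week the count was 7 without run 6 and 0 without run 1, 3 or 5. Over all genes the 1 week calls also fell, from 532 to 210, 271 and 292 without run 1, 3 or 5.

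**Figure D4:**
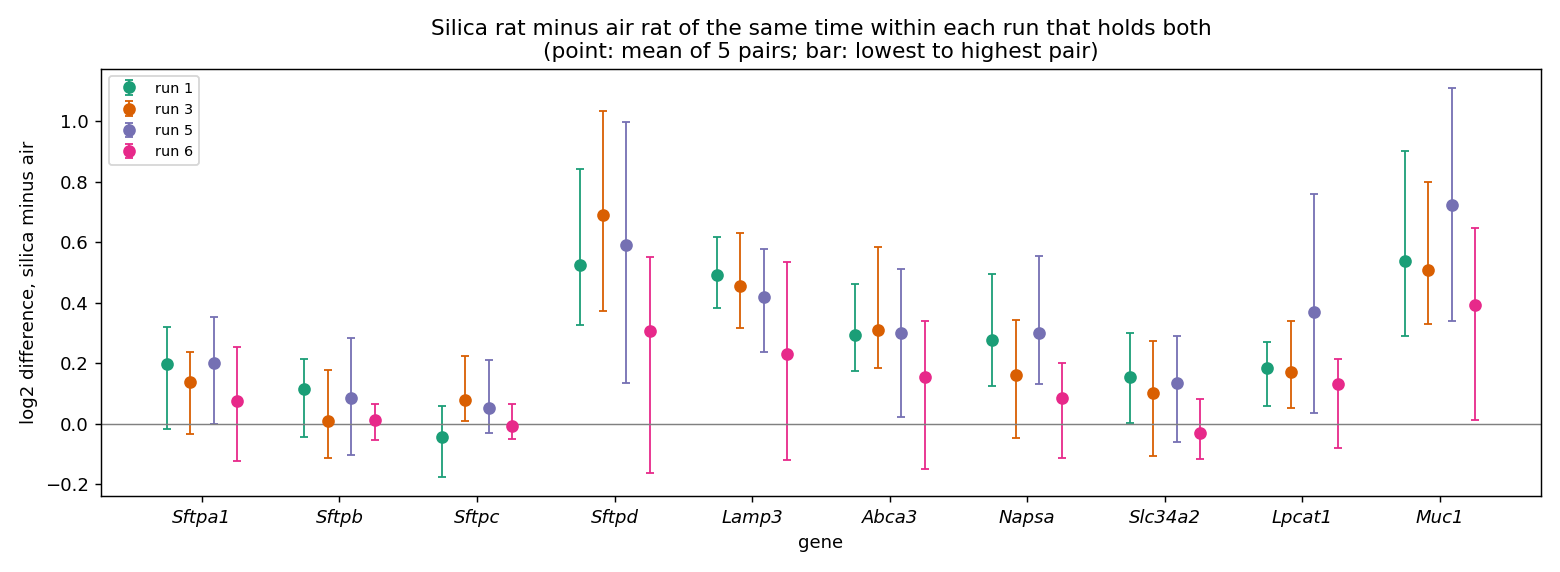
Log2 difference of a silica rat minus the air rat of the same time and run, for each gene (x axis) in the 4 runs that hold both, as the mean of 5 pairs (point) and the lowest to the highest pair (bar). Sftpd, Lamp3 and Muc1 have all 4 means above 0, the lowest being 0.31, 0.23 and 0.39 in run 6.

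The spread within groups was larger in air rats for several of these genes, and for most of them part of it went with the run. The pooled SD within groups was 0.18 in silica rats and 0.32 in air rats for Sftpd, and the ratio of air to silica was above 1 in all 10 genes, between 1.21 for Sftpc and 2.15 for Sftpa1, beside a median of 1.03 over all genes. For Sftpa1, 14 of 40 silica rats and 1 of 20 air rats stood at the same highest normalized value, 14.64, which bounds the silica spread. The air SD was the larger at all 5 times for Sftpd, Lamp3, Slc34a2 and Muc1, at 4 for Sftpa1, Sftpb, Abca3 and Napsa, at 3 for Sftpc and at 2 for Lpcat1. With run means also removed the ratio was 1.52 for Sftpd, 1.35 for Muc1, 1.29 for Sftpb, 1.25 for Lamp3 and 1.21 for Abca3. It was 1.09 for Lpcat1 and Slc34a2, 0.99 for Sftpc and 0.73 for Napsa, but 2.23 for Sftpa1, no smaller than before. Residual SDs over all groups were 0.09 to 0.23 log2 units, and the standard errors over the beads of an array, which leave out labelling and hybridization, 0.03 to 0.04.

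Apart from Sftpc, arrays that were high in one of these genes tended to be high in others. After group means were removed, the 45 pairs of genes had a median Pearson r of 0.34 over 60 arrays (-0.29 to 0.80), and of 0.40 with run means also removed (-0.14 to 0.73). Sftpc was in 7 of the 8 pairs below 0, and in all 4 with run means also removed. The r of pairs among genes at large is not given here. The 45 pairs had a median r of 0.20 in the 40 silica rats and 0.46 in the 20 air rats, and of 0.31 and 0.34 with run means removed. Sftpd and Muc1 had r = 0.69 in silica rats and 0.87 in air rats, the highest of the air rats, and 0.62 and 0.91 with run means removed. Sftpb and Sftpd also had 0.69 in silica rats. Sftpc and Sftpb had r = -0.12 in silica rats and -0.49 in air rats, but 0.35 and 0.05 with run means removed, and 0.86 and 0.52 with median scaling. Abca3 and Lamp3, both of lamellar bodies, had r = 0.50 in silica rats and 0.78 in air rats, and 0.40 and 0.50 with run means removed. These correlations share the arrays and their scaling: with median scaling the median r was 0.74, the lowest 0.44, and no pair was below 0.

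**Figure D5:**
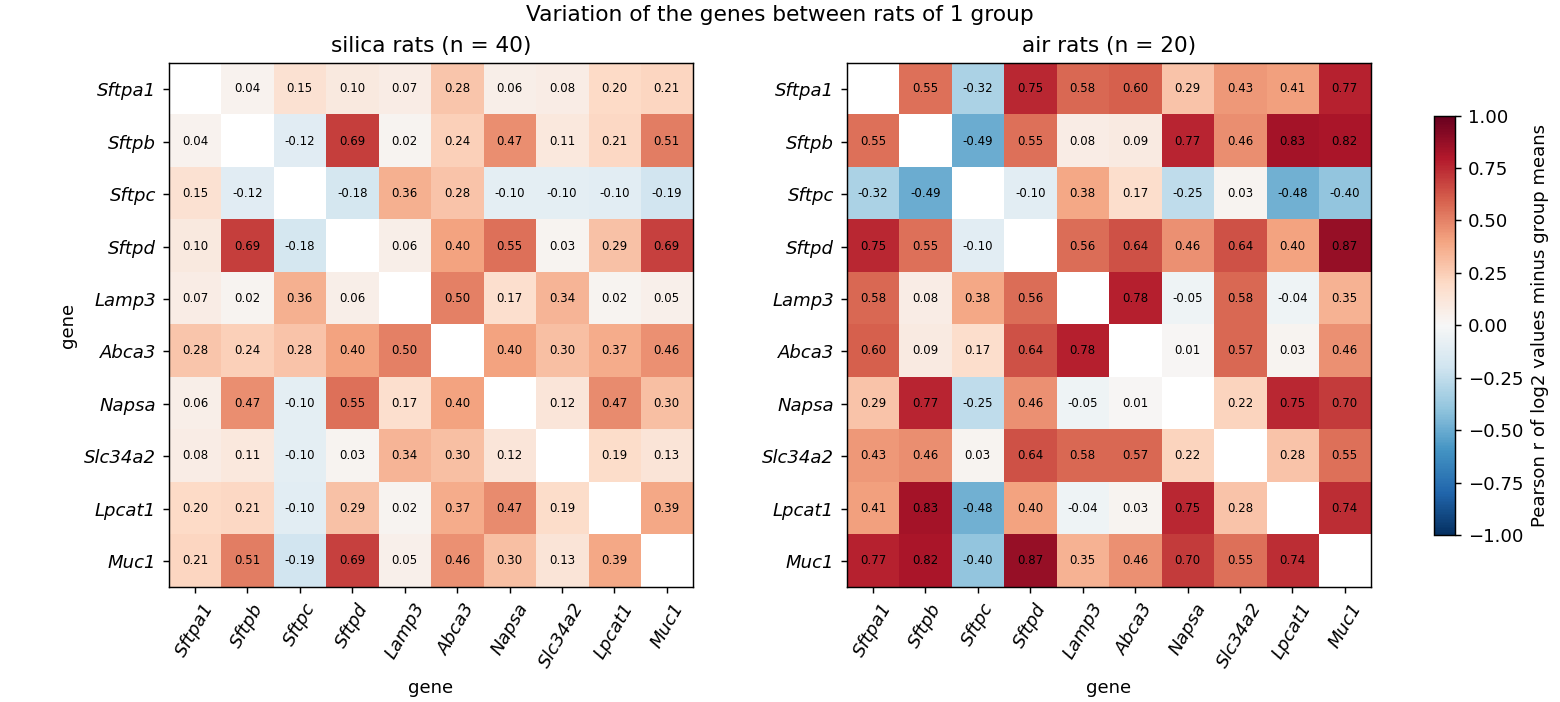
Pearson r between each pair of genes, on log2 values minus group means, in 40 silica rats (left) and 20 air rats (right). Sftpd and Muc1 stand at 0.69 and 0.87, and all 6 negative values of silica rats and 6 of the 8 of air rats, down to -0.49, are pairs with Sftpc; with median scaling no pair is negative.

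The genes whose levels within groups followed the mean of the 10 most closely, over 60 arrays, were C4bpa (r = 0.79), Cd177, Slc26a4, Tmem163, Lgmn, Plet1, Slc11a1, Lgals3, Ctsh and Slc7a7 (r = 0.73), and all 10 stayed between 0.69 and 0.79 with run means also removed. All 10 of these were also called higher in silica rats over the 5 times, from 0.22 for Slc11a1 to 2.72 for Slc26a4. For single genes, Muc1 led the list of Sftpd (r = 0.80), Lgmn that of Muc1 (0.81), Ftl1 that of Sftpb (0.78), Cd177 that of Sftpa1 (0.71) and Hexa that of Abca3 (0.70). The closest genes to Sftpc (Cct5, r = 0.59), Lpcat1 (C5h1orf122, 0.67), Slc34a2 (Tspan2, 0.56) and Napsa (Npw, 0.74) had mean differences of -0.00, 0.04, -0.09 and 0.00. With run means removed, Ftl1 had r = 0.48 with Sftpb and Cct5 0.17 with Sftpc.

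Other genes of surfactant handling were read from lists, whose counts for the mean of 5 times stand beside 14.6% of all genes called higher and 20.6% lower. Of 11 tested genes of surfactant processing and type II secretion, 6 rose and 1 fell over the 5 times (median 0.18, beside -0.01 for all genes). P2ry2, the nucleotide receptor that stimulates surfactant release, rose by 0.67 ± 0.05, the phospholipid flippase Atp8a1 by 0.53 ± 0.04, and Ctsh, a cathepsin that processes surfactant proteins B and C, by 0.44 ± 0.03. Sfta2 rose by 0.23 ± 0.04. Adgrf5, a receptor that restrains the surfactant pool and the gene of the list that fell (-0.18), is named here after its value was seen. Of 19 genes of phospholipid and fatty acid synthesis, 10 rose and none fell (median 0.11), among them Me1 (0.37 ± 0.04), which supplies NADPH, the desaturases Scd2 (0.19) and Fads1 (0.12), and the choline and ethanolamine phosphotransferase Cept1 (0.13). With median scaling 5 rose and 1 fell of the processing genes, and 6 rose and 1 fell of the synthesis genes (median 0.04).

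Of 13 transcription factors and growth signals of type II cells 3 rose and 1 fell (median 0.01), counts near or below the shares over all genes. The receptor Fgfr2 rose by 0.33 ± 0.05, and the leucine zipper factors Cebpa and Cebpb by 0.27 ± 0.06 and 0.21 ± 0.03. Gata6 fell by 0.15. With median scaling 2 rose and 1 fell (median -0.0056). Other markers of type II cells went both ways: 7 of 15 rose and 5 fell (median 0.08). Slc6a14, an amino acid transporter, rose by 0.20 ± 0.03, while Dlk1, which encodes a membrane protein with epidermal growth factor repeats, fell by 2.18 ± 0.11, Acoxl by 0.44 ± 0.06 and the alarmin Il33 by 0.24 ± 0.03. Wif1 (-0.22) and Cxadr (-0.10) completed the 5, named after their values were seen. All genes of the list that fell are thus named, but of the 7 that rose only Slc6a14 is. With median scaling 1 of the 15 rose and 5 fell (median -0.0042), and without normalization between arrays none rose and 4 fell. Among 14 relatives in the gene families of the 10, 2 rose (Ctsd, 0.27, and Lpcat3, 0.25) and 2 fell (Abca7, -0.19, and Colec12, -0.15), as near to the shares over all genes. Their median was 0.0074, and -0.048 with median scaling, -0.028 without normalization and -0.0024 with the authors' values. The medians of the other lists kept their sign under these scalings and cyclic loess.

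Genes of surfactant clearance by macrophages rose in 7 of 10 cases and fell in none (median 0.25), such as the lipid exporter Abcg1 (0.34 ± 0.03), the transcription factor Spi1 (0.49 ± 0.06), the growth factor Csf2 (0.40 ± 0.06) and the scavenger receptor Cd36 (0.22 ± 0.03). With median scaling 5 rose and none fell. Markers of injured or transitional epithelium rose in 4 of 12 and fell in 3 (median 0.03), with Lcn2 at 2.37, Lgals3 at 0.45, Cdkn1a at 0.34 and the keratin Krt8 at -0.14. The other falls were Krt7 (-0.18) and Krt19 (-0.13), which with Krt8 also stand in the pan-epithelial list. Of 9 pan-epithelial genes 2 rose and 4 fell (median -0.07), with Elf3 at 0.49 and Esrp1 at 0.19. Their mean level at 16 weeks was 9.88 to 10.05 in silica rats and 9.97 to 10.04 in air rats.

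Type I cell markers fell in 7 of 12 cases and rose in none (median -0.12), among them Ager (-0.21 ± 0.03), Aqp5 (-0.26), Clic5 (-0.23) and Cryab (-0.26). Endothelial markers fell in 6 of 6 (median -0.25), with Vwf at -0.32, Tie1 at -0.27, Cldn5 at -0.27 and Emcn at -0.23. Club cell markers gave 1 rise (Cldn10, 0.93) and 2 falls of 9 (Cyp4b1, -0.28, and Aldh1a1, -0.13), ciliated cell markers 1 fall of 7 (Tppp3, -0.30), and fibroblast and smooth muscle markers 2 falls of 9 (Myh11, -0.19, and Pdgfra, -0.11; 5 falls with median scaling). Liver genes gave 1 rise (Tf, 0.69) and 1 fall (Serpina1, -0.24) of 7. The counts of the club, ciliated, fibroblast and liver lists were near or below the shares over all genes.

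Macrophage markers rose in 7 of 10 cases and fell in 1, Cd163 at -0.12 (median 0.36), with Chi3l1 at 1.17, Cd68 at 0.68, Itgax at 0.58 and Ctss at 0.35, and their mean level at 16 weeks was 9.10 to 9.49 in silica rats and 8.47 to 8.77 in air rats. Neutrophil markers rose in 6 of 7 (median 0.43), with Cd177 at 2.23, S100a8 at 0.80, Mmp8 at 0.47 and Cxcr2 at 0.43, and ran at 16 weeks from 7.51 to 8.02 in silica rats and from 6.82 to 6.91 in air rats. Over 60 arrays, with group means removed, the mean of the 10 genes had r = 0.81 with the list of surfactant processing, 0.64 with injured or transitional epithelium, 0.61 with the macrophage list, 0.50 with surfactant clearance, 0.40 with the pan-epithelial list and 0.30 with the neutrophil list, and between -0.18 and 0.22 with the other 11. With run means also removed it was 0.77 with surfactant processing, 0.56 with injured epithelium, 0.65 with the macrophage list and with surfactant clearance, and 0.59 with phospholipid synthesis. It was then 0.42 with the pan-epithelial list and with transcription factors and growth signals, and 0.22 with the neutrophil list. With the ciliated and endothelial lists it was -0.36 and -0.35, and with the rest it lay between -0.16 and 0.20. Mature dendritic cells are known to make Lamp3, and the part of immune cells in the values of the 10 genes was not tested. Heart muscle markers were not called over the 5 times (0 of 7; Myh6 -0.94 ± 0.59 and Tnnt2 -0.41 ± 0.41), but 6 of 7 fell at 16 weeks, when their mean level was 5.08 to 7.78 in silica rats and 8.10 to 8.89 in air rats. With that mean as a covariate the 16 week rises were 0.73 for Sftpd, 0.72 for Muc1 and 0.37 for Lamp3, and 6 genes were called.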

How the data were processed

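Whole-lung RNA of 60 rats was labelled and hybridized to Illumina bead arrays, per the labels' protocols. The intensity, detection p-value, bead standard error and bead number of each row are as the authors deposited them, per the file headers, and the authors' processed log2 values served as an alternative. BeadStudio, lumi and limma are named, per the submitters' processing notes, and their versions are not stated there. The table had 21792 rows beside 2 blank lines. In 1 array, silica at 4 weeks, replicate 3, the signals were displaced by 2 lines from gene line 17 on. They were shifted back into place, after which the array correlated with the median of the others at 0.998, against 0.232 before. Rows were named through RefSeq genes of GRCr8.

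Background correction used limma's normexp (offset 16), with the negative control beads deduced from the detection p-value of each signal, then quantile normalization and log2. The filter asked for a detection p-value under 0.05 in 4 or more arrays, and 13919 genes passed, with 1 row each. R 4.3.3 and limma 3.58.1 (lmFit and eBayes) fitted 10 group means with 50 residual degrees of freedom, and p-values were adjusted by Benjamini-Hochberg across the full table. On simulated data with the same design, 67 of 67 genes with a log2 change of 0.3 were recovered for the mean of 5 times, and 39 of 67 at 1 week. There were 5 and 9 false calls in these, and changes smaller than 0.3 were not simulated. Named genes were the 10 genes, up to 4 called genes of each list by smallest p (otherwise its 2 brightest), the 10 genes most like the mean of the 10 and the 3 most like each. A gene that this rule names in the pan-epithelial list is not reported here. The genes and lists were chosen with earlier results of these data known, and the lists were surfactant processing and type II secretion, phospholipid and fatty acid synthesis, type II transcription factors and growth signals, other type II markers, surfactant clearance, injured epithelium, pan-epithelial, type I, club, ciliated, macrophage, neutrophil, endothelial, fibroblast and smooth muscle, heart muscle and liver genes, and relatives in the gene families. Replicate numbers name different rats: 5 of 20 same-numbered pairs of arrays correlated above 0.1 (-0.35 to 0.39), so they were not treated as pairs. The labels do not say whether litters or cages were shared, and p-values measure the spread between these rats. The number of arrays, with 4 air arrays at each time, limits the precision. Figures used python 3.11.15.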

Additional observations from a re-analysis of the deposited data

Results flagged for a closer look

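Each gene was looked at for a rat far from the others of its group, in 100 combinations of gene and group, of which chance would pick out about 5. There were 7. Sftpb in silica rats at 8 weeks had replicate 1 at 13.62, below the others at 13.84 to 13.99. At 2 weeks Sftpb in silica replicate 6 stood at 14.16, above the others at 13.85 to 13.99. Sftpc in silica replicate 1 at 1 week was 14.50, above 14.03 to 14.25 in the rest of its group. Sftpd in silica replicate 1 at 2 weeks was 10.57, below 10.86 to 11.10. In air rats, Abca3 at 16 weeks was 10.17 in replicate 3, beside 9.97 to 9.99 in the others. Napsa at 4 weeks was 12.92 in air replicate 2, beside 13.21 to 13.27, and Slc34a2 at 1 week was 12.92 in air replicate 2, beside 13.11 to 13.14. Each was kept in all values above.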

How the results depend on the processing

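Counts are of the 10 genes called. With median scaling they were 0, 0, 0, 0 and 3 at the 5 times in order, and with no normalization between arrays 0, 0, 0, 0 and 2, and 3 for the mean of 5 times (Sftpd, Lamp3 and Muc1). Each time fitted alone gave 0, 1 and 2 at 1, 4 and 8 weeks. An adjusted p under 0.01 with a 1.5-fold change left 0, 1, 0, 0 and 2, and 0 for the mean. At 1 week the count was 1 without a detection filter, 1 with the heart muscle covariate, 5 with the run as a block and 1 in mixed runs alone, 7 without run 6 and 0 without run 1, 3 or 5. At 4 weeks it was 0 without run 1 and 1 without run 3, and at 8 weeks 2 in mixed runs alone, 1 without run 1 and 2 without run 5. The replicate block left 1 at 1 week and 2 at 8 weeks, with 6, 2 and 6 at 2, 4 and 16 weeks and 7 for the mean, where Slc34a2 was lost. The slope in silica rats was called in 0 genes with median scaling, without normalization, with the stricter threshold or without week 16, and in 1 without a detection filter, in mixed runs alone or without run 3. Slc34a2 changed sign for the mean of 5 times under median scaling (-0.0027). The median r was 0.74 with median scaling, and 6 genes reached 25% of the highest signal. The cause of these changes was not tested.

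Leaving out 1 rat at a time gave 0 to 6 genes at 1 week (0 without air replicate 3 or 4, 1 without air replicate 2 or silica replicate 5 or 7, 5 without silica replicate 2, 6 without air replicate 1), 5 to 6 at 2 weeks, 1 to 5 at 4 weeks (1 without air replicate 3 or 4, 5 without air replicate 2), 1 to 4 at 8 weeks (1 without air replicate 2, 2 without air replicate 3 or silica replicate 8) and 6 at 16 weeks. The mean of 5 times had 7 to 8 calls, the counts relative to Sftpc 7 to 8 and relative to Slc34a2 6 to 7, the slope in silica rats 1 to 3 (1 without silica replicate 1, 6 or 7 at 1 week, 1 at 2 weeks, 8 at 8 weeks or 2 or 4 at 16 weeks), and the other slopes and the F-test 0. Over 5840 values of the 10 genes under all alternatives, 1 changed sign against a call, 124 changed sign with no call on either side, 192 lost a call and 30 gained one. The slide as a block was not run, since no slide is named. The blocks by run, the runs left out, the heart muscle covariate, the alternatives of the counts relative to Sftpc and Slc34a2, the split of correlations by exposure, the removal of run means from correlations and SDs, and the gene lists under other scalings were chosen after seeing the data. Over all genes, calls at the 5 times in order numbered 532, 1308, 922, 1241 and 3160, against 114, 582, 419, 367 and 1865 with median scaling, 40, 66, 56, 170 and 681 without normalization, and between 73 and 393 with the stricter threshold. Of the genes called at the 5 times in order, 70.1%, 51.0%, 43.2%, 53.4% and 46.2% were higher, against 73.7%, 24.9%, 25.1%, 71.9% and 37.5% with median scaling and 80.0%, 66.7%, 83.9%, 91.8% and 45.8% without normalization, and cyclic loess gave 61.4% at 2 weeks and 56.0% at 4 weeks. Fitting each time alone left 415, 443 and 778 at 2, 4 and 8 weeks, and array weights 745 and mixed runs 834 at 2 weeks. Without 1 run they were 210 to 292 at 1 week, 433 and 441 at 2 weeks, 251 and 265 at 4 weeks and 686 and 771 at 8 weeks, and without 1 rat between 42.7% of the 532 (without air replicate 3) and 630 at 1 week, and 468 to 1905, 240 to 1454 and 702 to 1369 at the next 3. The mean had 4892 calls, against 2121 without normalization and 118 with the stricter threshold. The slope of the difference had 246, against 2 to 629, the slope in air rats 273, against 0 to 536, the slope in silica rats 3901, against 1 to 5421, and the F-test 292, against 12 to 874.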
